A study of Homo sapiens with 2 samples.

Results

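The genes described here encode secreted peptide hormones of the pancreatic islet and its tumours together with spexin and the stanniocalcins. They are INS, GCG, SST, PPY, GHRL, IAPP, CALCA, SPX, STC1 and STC2, and their members on the array are all probe sets whose single gene symbol in the platform annotation is one of them. The genes were chosen by their difference between ALDH-high and control levels on these same arrays, seen in an earlier look at the data, as well as by what they encode. Of the 10 genes, 9 had a probe set, with 17 probe sets in all, among 19775 genes and 54613 probe sets compared. No probe set used here carried the symbol of PPY, which encodes pancreatic polypeptide, so its expression was not analysed here. RNA came from QGP1, an established line of human pancreatic neuroendocrine tumour (pNET) cells. The group called ALDH high was QGP1 cells of high aldehyde dehydrogenase (ALDH) activity, by which stem-like tumour cells are often enriched, taken by fluorescence-activated cell sorting. The control group was QGP1 cells, and the labels do not say whether they were sorted too. Each group was 1 Affymetrix array of this single line, so no difference below has a replicate check and none carries a p-value.

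Islet cells make their hormones as larger precursors, which convertases cut and other enzymes trim and amidate inside dense-core granules. Insulin lowers blood glucose and glucagon raises it, somatostatin restrains the release of both, amylin (IAPP) is released together with insulin, and ghrelin (GHRL) stimulates growth hormone release and appetite. Neuroendocrine tumours can secrete any of these, and often hormones that the normal islet makes little of, such as the calcitonin and calcitonin gene-related peptide encoded by CALCA. Spexin (SPX) is a small peptide that acts on the galanin receptors GALR2 and GALR3. Stanniocalcins are secreted glycoproteins known from calcium and phosphate handling in fish, and in mammals they bind and inhibit the pappalysins, proteases that free insulin-like growth factors from their binding proteins.

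The members fell into a group of 3 genes that were far lower in ALDH-high cells and 6 genes that differed by at most 1.52-fold. The sequences just upstream of a transcript start of SPX and STC2, which belong to the first group, and of SST and CALCA, which were bright on both arrays, show what precedes the genes that the results turn on. Each is the 250 bases before the start site given for the gene in the RefSeq promoter table, build GRCh38.p14, 5′ to 3′ on the gene's strand. For STC2, SST and CALCA this site is the end of the annotated gene, whereas the SPX window lies inside the annotated SPX gene, whose span begins further upstream. Capitals mark matches, on either strand, to the motifs searched. These were the cAMP response element TGACGTCA, the composite element of C/EBP and ATF factors TGATGNAA, the hypoxia response core ACGTG, the E-box CANNTG, the homeodomain core TAAT and the TATA box core TATAAA.
SPX (chr12:21527702-21527951, plus strand): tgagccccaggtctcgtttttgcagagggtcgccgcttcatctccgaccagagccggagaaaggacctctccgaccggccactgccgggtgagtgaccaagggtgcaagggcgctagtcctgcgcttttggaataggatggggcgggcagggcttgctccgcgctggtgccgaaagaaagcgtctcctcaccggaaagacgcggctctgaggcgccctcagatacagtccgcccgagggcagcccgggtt
STC2 (chr5:173328415-173328664, minus strand): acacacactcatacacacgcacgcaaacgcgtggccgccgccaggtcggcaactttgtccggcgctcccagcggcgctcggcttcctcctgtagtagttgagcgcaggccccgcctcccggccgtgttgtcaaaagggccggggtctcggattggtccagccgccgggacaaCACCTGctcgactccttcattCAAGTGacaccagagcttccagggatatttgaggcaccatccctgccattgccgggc
SST (chr3:187670395-187670644, minus strand): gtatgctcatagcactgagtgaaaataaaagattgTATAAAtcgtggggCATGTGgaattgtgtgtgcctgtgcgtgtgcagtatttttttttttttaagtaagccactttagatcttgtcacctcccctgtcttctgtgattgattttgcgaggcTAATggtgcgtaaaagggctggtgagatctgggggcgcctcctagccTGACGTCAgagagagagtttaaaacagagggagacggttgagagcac
CALCA (chr11:14972352-14972601, minus strand): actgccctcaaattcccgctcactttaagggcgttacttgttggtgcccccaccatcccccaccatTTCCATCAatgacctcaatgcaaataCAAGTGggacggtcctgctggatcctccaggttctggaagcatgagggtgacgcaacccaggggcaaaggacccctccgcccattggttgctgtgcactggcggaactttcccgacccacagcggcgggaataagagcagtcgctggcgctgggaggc
The SST sequence held the cAMP response element, beginning 47 bases before the start, and cAMP signalling is known to act on this gene through such an element. The element was found in 1.65% of 35116 such windows of the RefSeq table. CALCA held 1 match to the composite element, which 3.14% of windows hold, beginning 184 bases before the start. STC2 held 2 E-boxes, a motif of 61.8% of windows, and the SPX window held no match to any of the 6 motifs. The bases before the outer end of the SPX gene were not searched. Among the 11 windows of 9 member genes, the E-box was in 8, the homeodomain core in 5 (47.4% of all windows), the TATA core in 5 (10.7% of all windows), and the hypoxia core in none (18.5% of all windows). The table lists 2 windows each for IAPP and PPY, and STC1 is not among the genes matched. The 2 PPY windows overlap and share 1 TATA core match, which is counted in both. A match describes these letters only, and no match says nothing of the factor.

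The deposited values are log2 levels made with RMA, which puts the arrays on a common scale, so a difference of 1 is a 2-fold change. The median level of all probe sets was 5.68 on the ALDH-high and 5.68 on the control array. Levels of different probe sets cannot be set against each other, so brightness is given as a percentile among the probe sets of the same array. No detection calls came with the values, and a dim level cannot be told from absence. Where a gene had several probe sets, their differences scattered with a pooled SD of 0.23, which serves as a yardstick but does not cover the spread between cultures or sorts. In bulk RNA, fewer cells that express a gene and less RNA per cell cannot be told apart. All 10 neuroendocrine markers examined were at or above the median level on both arrays, and none was over 2-fold different. Only 1.23% of all genes were over 2-fold lower and 0.465% higher, so 0 of 10 is near that share. The poly-A control transcripts, which are added to the RNA before labelling, were on average 0.32 higher on the ALDH-high array (24 probe sets), and the hybridisation controls 0.05 higher (18 probe sets). Centring on the poly-A controls would therefore lower every difference below by 0.32 and move the median over all genes from -0.01 to -0.32. The part of this offset in the results was not tested.

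**Figure D1:**
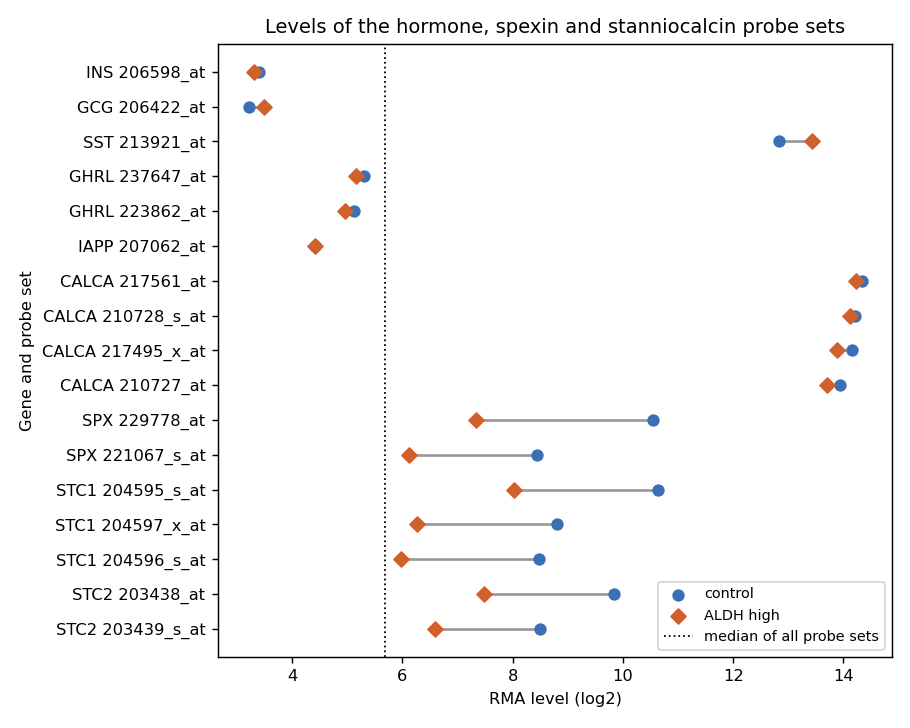
RMA level (log2, horizontal axis) of each of the 17 probe sets (vertical axis) on the ALDH-high array (orange diamonds) and the control array (blue circles), 1 array each, with the median of all probe sets dotted. The 7 probe sets of SPX, STC1 and STC2 lie well to the left on the ALDH-high array, while those of the other genes lie close together, SST being shifted to the right.

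Spexin had the largest difference of the members. On its brighter probe set, 229778_at, SPX stood at 7.34 in ALDH-high cells and 10.55 in control cells, a 9.27-fold lower level. On the other, 221067_s_at, it stood at 6.12 against 8.45, a 5.01-fold lower level. Both probe sets were thus lower on the ALDH-high array, but they differed from each other in size by 0.89 on the log2 scale, more than the pooled SD between probe sets. As percentiles, the brighter probe set went from 94.8 on the control to 70.7 on the ALDH-high array, so SPX was still above the median level there. Among 19775 genes, each taken on its probe set with the highest mean level, SPX had the 8th lowest difference.

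Both stanniocalcins were lower in ALDH-high cells on every probe set. STC1 stood at 8.02 in ALDH-high cells against 10.64 in control cells on 204595_s_at, a 6.16-fold lower level. The other STC1 probe sets gave 6.26 against 8.81 (5.86-fold lower) and 5.98 against 8.48 (5.69-fold lower). The 3 differences lay within 0.12 of each other, less than the pooled SD between probe sets. All STC1 probe sets have IDs ending in _s_at or _x_at, which marks probes that can bind more than 1 transcript, so none of them is free of possible cross-hybridisation. STC2, the paralogue, stood at 7.48 in ALDH-high cells against 9.84 in control cells on 203438_at, a 5.13-fold lower level on a probe set without that mark. Its second probe set gave 6.59 against 8.50, a 3.76-fold lower level. The 2 STC2 differences lay 0.45 apart on the log2 scale, more than the pooled SD between probe sets. In the order of all genes from the lowest difference, STC1 was in place 12 and STC2 in place 19. The brighter STC1 and STC2 probe sets stood at percentiles 77.1 and 72.1 of the ALDH-high array and 95.2 and 91.5 of the control array, so both genes kept a level above the median.

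These 3 genes account for every member past 2-fold, the threshold of the series description. Of the 9 members, 3 were over 2-fold lower and 0 over 2-fold higher, where 1.23% and 0.465% of all genes were. Of the 17 probe sets, 7 were over 2-fold lower, against 0.842% of all probe sets, and 0 over 2-fold higher, against 0.403%. The members were chosen with these differences known, so the counts describe the choice and support nothing. The median difference of the 9 members was -0.11, beside -0.01 over all genes.

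**Figure D2:**
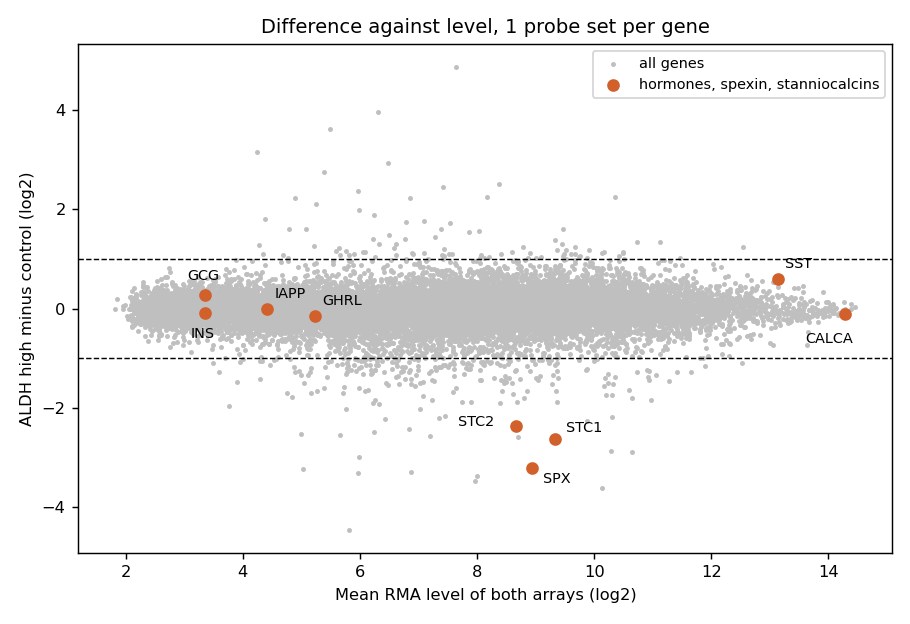
Difference between arrays (ALDH high minus control, log2, vertical axis) against the mean level of both arrays (log2, horizontal axis) for 19775 genes, 1 probe set per gene (grey), with the 9 member genes in orange and 2-fold marked by dashed lines. SPX, STC1 and STC2 lie at -3.21, -2.62 and -2.36 in the middle of the level range, and the remaining members lie within the dashed lines.

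Somatostatin was the member with the highest positive difference. SST, the inhibitory hormone of islet delta cells, stood at 13.43 in ALDH-high cells and 12.83 in control cells, a 1.52-fold higher level on its only probe set. These levels were at percentiles 99.6 and 99.3 of the arrays. SST was chosen with this difference known, so it is a description. With the poly-A controls as the reference, it was 0.29, a value that exceeds the pooled SD between probe sets only narrowly.

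CALCA, which encodes calcitonin and the alpha form of calcitonin gene-related peptide by alternative splicing, was nearly level at the top of both arrays. Its brightest probe set, 217561_at, read 14.22 in ALDH-high cells and 14.33 in control cells, and only 11 probe sets of the ALDH-high array were brighter. The other CALCA probe sets read 14.12 against 14.21, 13.88 against 14.16 and 13.71 against 13.93. All 4 were lower in ALDH-high cells, by 0.10 to 0.28 on the log2 scale, or 1.07-fold to 1.22-fold. The highest level of any probe set was 14.48 on the ALDH-high and 14.45 on the control array, so these probe sets had little room above them. Whether their signal was near saturation was not tested. Its neighbour and paralogue CALCB, which encodes the beta form of the peptide, was in contrast 2.42-fold lower in ALDH-high cells, at 11.01 against 12.29. CALCB has 1 probe set, and transcripts of CALCA and CALCB are similar enough in sequence that cross-hybridisation between them is possible, which was not tested.

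The remaining hormones were dim on both arrays and differed little. INS read 3.31 in ALDH-high cells and 3.40 in control cells, and GCG read 3.49 against 3.22, at percentiles from 11.7 to 15.5 of the arrays. IAPP read 4.41 on both arrays, equal to the last deposited digit, as did 2877 probe sets (5.27%) in all. GHRL read 5.17 against 5.31 on one probe set and 4.96 against 5.13 on the other, both below the median level. The absolute differences of INS and GCG recurred, to 6 decimals, in 89 and 47 probe sets in all, and those of GHRL in 9 and 13, whereas those of SST, CALCA, SPX, STC1 and STC2 were each found once. As folds, GCG was 1.21-fold higher and INS 1.07-fold lower. Centred on the poly-A controls, GCG turned to -0.037.

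The genes next to SPX and STC2 on the chromosome were not over 2-fold different, and those next to STC1 were not examined. SPX and IAPP lie close together, with 3 measured protein-coding genes between them in the RefSeq order. IAPP was equal on both arrays, and the genes between them, PYROXD1, RECQL and GOLT1B, differed by -0.34, 0.11 and -0.28. Over the 5 measured neighbours on each side of SPX, the differences ranged from -0.34 to 0.15 and 0 of 10 were over 2-fold. Of all genes, 1.23% were over 2-fold lower and 0.465% higher, so 0 of 10 is near that share and sets no locus apart. Around STC2 the range was -0.59 to 0.27, again with 0 of 10 over 2-fold, and around SST -0.62 to 0.16. Of the 10 neighbours of CALCA, 2 were over 2-fold different, against the shares of all genes just given. These were the genes on either side of it, both lower. The CALCA probe sets differed by -0.28 to -0.10 near the top of both arrays, where saturation was not tested. CYP2R1, a vitamin D hydroxylase, read 8.67 in ALDH-high cells against 9.77 in control cells (2.14-fold lower) and CALCB 11.01 against 12.29. INSC, the next gene after CALCB, was 1.98-fold lower at a dim level (3.82 against 4.81). Of the 10 neighbours each of GCG and IAPP, FIGN near GCG (1.02) and PDE3A near IAPP (-1.05) were also over 2-fold different, besides SPX itself. These neighbours were examined after the member values were known.

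**Figure D3:**
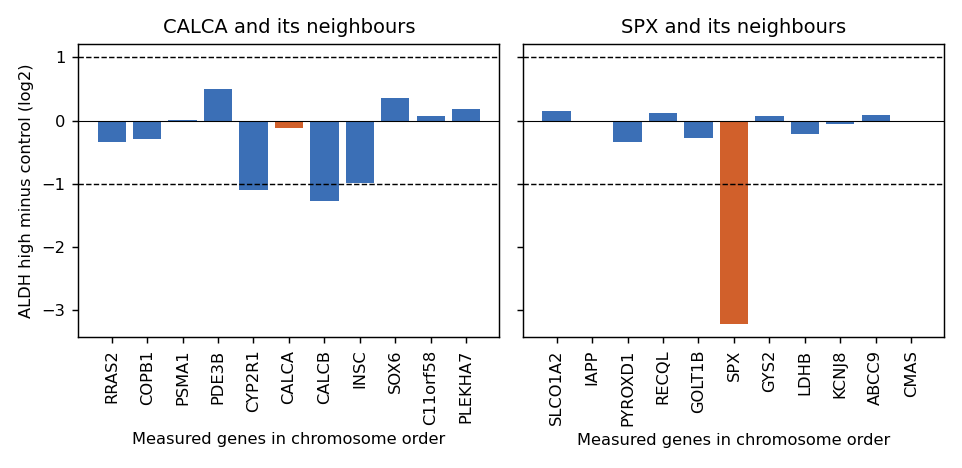
Difference between arrays (ALDH high minus control, log2, bars) of CALCA and SPX (orange) and of the 5 measured protein-coding genes on each side in chromosome order (blue), with 2-fold marked by dashed lines. CALCA is close to 0 between CYP2R1 at -1.10 and CALCB at -1.27, and SPX stands alone at -3.21.

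Enzymes that turn hormone precursors into active peptides, and the partners of those enzymes, had 6 measured genes. None was over 2-fold different, where 1.23% of all genes were lower and 0.465% higher, so 0 of 6 is near that share. The 6 differences lay below 0, with a median of -0.27, and the smallest, those of CPE and PCSK1N at -0.14, were within the pooled SD between probe sets. QPCT, the glutaminyl cyclase that makes the pyroglutamate end of some peptides, was 1.61-fold lower (10.57 against 11.26). With the poly-A controls as the reference, QPCT differed by -1.004 and was over 2-fold lower. SCG5, the chaperone of the convertase PC2, was 1.29-fold lower (12.39 against 12.75). The convertase genes PCSK1 and PCSK2 and the ghrelin acyltransferase gene MBOAT4 were not analysed here.

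Receptors for the member peptides differed little. None of 17 was over 2-fold different, where 1.23% of all genes were lower and 0.465% higher, so 0 is near that share. Of the 17, 10 lay above 0 and 7 below, and the median was 0.06. With the poly-A controls as the reference, 1 lay above 0 and 16 below. GALR2, a receptor of spexin, read 4.63 in ALDH-high cells against 4.15 in control cells, and GALR3, the other, 6.87 against 7.02. GALR3 is named after its value was seen. SSTR5, a somatostatin receptor, read 4.37 against 4.81. Only 8 of the 17 receptors were at or above the median level, so most could show little. For GALR2 and SSTR5, the receptors with the largest differences, both levels were below it.

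The genes of the stanniocalcin, pappalysin and insulin-like growth factor axis did not show a difference of the size of STC1 and STC2. None of 7 measured genes was over 2-fold different, which is near the shares of all genes (1.23% lower, 0.465% higher). Of the 7, 6 lay below 0 and 1 above, and the median was -0.13. IGFBP5, a binding protein that pappalysins cut, was 1.48-fold lower (9.16 against 9.73), with 5 of its 6 probe sets below 0. IGF1R, the receptor, was 1.33-fold lower (9.55 against 9.96), with its probe sets ranging from -0.41 to 0.31. PAPPA, a pappalysin that stanniocalcins inhibit, differed by -0.09 on its brightest probe set (5.81 against 5.90) and is named after its value was seen. Its 11 probe sets ranged from -0.37 to 0.47.

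Among 28 other peptide hormones and neuropeptides, CALCB was the only one over 2-fold different, and 0 were over 2-fold higher. Over all genes, 1.23% were over 2-fold lower and 0.465% higher. GRP, gastrin-releasing peptide, was 1.86-fold higher in ALDH-high cells (12.48 against 11.59). Of this list 10 lay above 0, 17 below and 1 at 0, with a median of -0.05, and 10 were at or above the median level. NTS (neurotensin), named after its value was seen, was bright and nearly level, at 13.77 against 13.61.

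**Figure D4:**
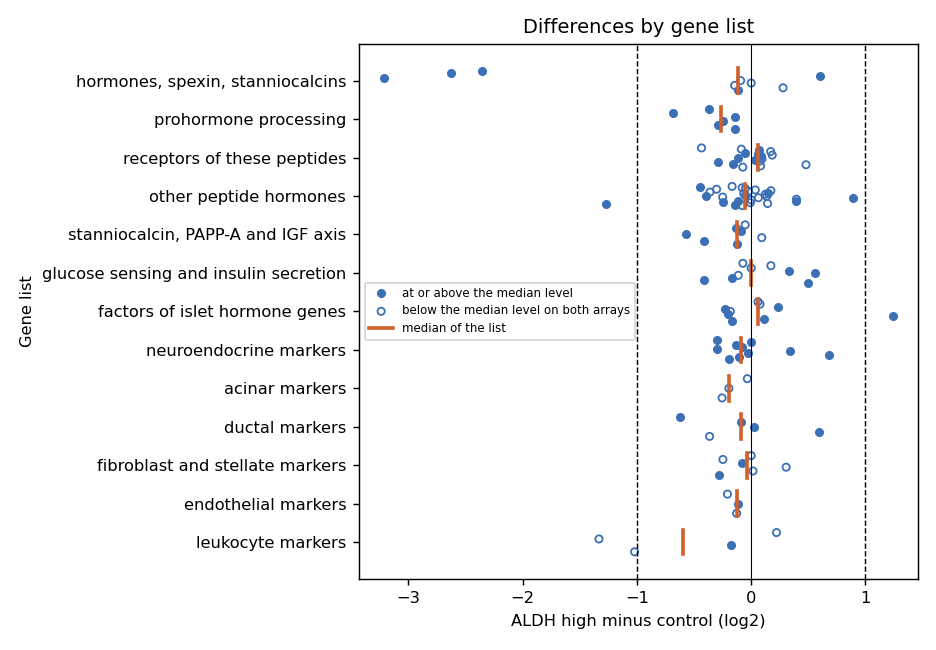
Difference between arrays (ALDH high minus control, log2, horizontal axis) of each measured gene by list (vertical axis), filled where the higher of the gene's levels is at or above the median of all probe sets and open where it is not, with the median of each list in orange and 2-fold dashed. SPX, STC1 and STC2 are the only points beyond -2, and ISL1 is the only point beyond 1.

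Among genes that couple glucose to insulin release and transcription factors of hormone genes, ISL1 was the only one over 2-fold different. Of 9 glucose sensing and secretion genes 0 were, with 4 above 0, 4 below and a median of 0. The shares over all genes were 1.23% over 2-fold lower and 0.465% higher, so 0 of 9 is near them. KCNJ11 and ABCC8, the subunits of the ATP-sensitive potassium channel, were 1.47-fold (6.41 against 5.85) and 1.41-fold (9.21 against 8.71) higher, or 0.24 and 0.18 on the log2 scale by the poly-A reference. The second ABCC8 probe set, which was dim, differed by -0.10. CACNA1C, a calcium channel subunit named after its value was seen, differed by -0.42. Of 9 factors of islet hormone genes, ISL1, a LIM homeodomain protein known to bind the SST, INS and GCG genes, was over 2-fold higher at 2.36-fold (10.29 against 9.05). With the poly-A controls as the reference, ISL1 differed by 0.93 and was no longer over 2-fold. PAX6, the other factor named, was 1.18-fold higher (7.21 against 6.97; -0.08 by the poly-A reference), and the median of the list was 0.06.

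Of the markers of cell identity, only LYZ and CD14 of the leukocyte list were over 2-fold different. Across all genes, 1.23% were over 2-fold lower and 0.465% higher. The 10 neuroendocrine markers had a median of -0.09, with 2 above 0, 7 below and 1 at 0. The 2 above were DDC, the dopa decarboxylase, 1.60-fold higher (11.93 against 11.25), and INSM1, a neuroendocrine transcription factor, 1.27-fold higher (11.47 against 11.13). By the poly-A reference, DDC differed by 0.37 and INSM1 by 0.03. The lowest was UCHL1 at -0.30, named after its value was seen. Of 5 ductal markers 0 were over 2-fold different, SOX9 being 1.54-fold lower and KRT19 1.51-fold higher, and the second KRT19 probe set, which was dim, differed by -0.08. The 3 acinar markers were all below the median level, with CELA3A and CPA1 differing by -0.25 and -0.20. Of 6 fibroblast and stellate markers 0 were over 2-fold different, with COL3A1 at 0.31 (-0.01 by the poly-A reference) and COL1A1 at -0.28. Their probe sets disagreed, from -0.52 to 0.45 for COL3A1, which was dim, and from -0.72 to 0.08 for COL1A1. Of 3 endothelial markers 0 were over 2-fold different, with VWF at -0.21 and CDH5 at -0.13. Of 4 leukocyte markers, LYZ (4.34 against 5.67) and CD14 (4.30 against 5.32) were over 2-fold lower at dim levels, whereas the defining marker PTPRC read 3.56 against 3.34. The LYZ probe set used can bind more than 1 transcript, and the second LYZ probe set differed by only -0.42. The 5 PTPRC probe sets ranged from -0.12 to 0.72. The summed linear levels of the leukocyte list were 102 in ALDH-high and 158 in control cells, a gap that comes mostly from LYZ and CD14, and their part in the member differences was not tested.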

How the data were processed

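Log2 levels per probe set were made by the authors with RMA, per the submitters' processing notes. The sources used here give neither its version nor which arrays were normalised together. RNA had an integrity number above 7 and was labelled from the poly-A tail, per the labels' protocols, so levels depend on the 3' end of each transcript. The deposited table held 54675 probe sets, of which 62 were controls.

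Symbols came from GEO's annotation, updated through RefSeq (GRCh38.p14), and probe sets with several symbols were not named. Each gene was taken on its brightest probe set by the mean of both arrays. Differences are ALDH high minus control, computed with pandas 2.3.3; called means over 2-fold. Loess centring used statsmodels 0.14.6. The threshold was tested on simulated data, whose outcome is not given here. With 1 array per group, simulated data cannot supply the spread between cultures or sorts, so 2-fold is a descriptive cutoff only. The genes, lists and motifs were chosen with earlier results of these data known. From each related list, the members over 2-fold (up to 4) and never fewer than the 2 that differed most were named, and others only as stated. With 2 arrays, no gene of similar pattern was sought. The number of arrays limits the precision.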

Additional observations from a re-analysis of the deposited data

How the results depend on the processing

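SPX, STC1 and STC2 were over 2-fold lower under every alternative that gave them a value, with SPX from -3.53 to -2.77, STC1 from -2.94 to -2.48 and STC2 from -2.68 to -2.13 on the log2 scale. SPX was -2.98 with a pseudocount of 32 on the linear scale and -2.77 when its probe sets were averaged, by mean or by median. Without probe sets that can bind several transcripts, 2 member probe sets were over 2-fold lower and STC1 had none left. Centred on the poly-A controls, the differences were -3.53 for SPX, -2.94 for STC1, -2.68 for STC2, 0.29 for SST, -0.43 for CALCA, -0.46 for GHRL, -0.41 for INS, -0.32 for IAPP and -0.037 for GCG, with a median of -0.43. That centring left 1 member above 0 and 8 below, instead of 2 and 6, and raised the share of lower genes among all genes over 2-fold from 72.5% to 94.8%. The median of the members was -2.36 over the 5 whose higher level reached the median of all probe sets, because the dim hormones drop out. At a threshold of 1.5-fold, 1 member and 1 member probe set (SST) were higher.

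Of the 123 genes in the 12 related lists, not all of them measured, 1 was over 2-fold higher and 3 lower. Of all genes, 0.465% were over 2-fold higher and 1.23% lower. The higher count was 4 at 1.5-fold, 0 at 3-fold and 0 with poly-A centring. The lower count was 5 at 1.5-fold, 0 at 3-fold and 4 with poly-A centring. It was 1 with the pseudocount and 1 among genes at or above the median level. It was 2 without probe sets that can bind several transcripts, and 2 when probe sets were averaged, by mean or by median. Leaving out an array was not possible with 1 per group. No paired analysis was possible because each group has 1 array.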
